A study of Mus musculus with 40 samples.

Results

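UDP-glucuronosyltransferases (UGTs) and Ugdh, the enzyme that makes their sugar donor, were followed across liver and kidney of mice given phenobarbital (PB). The members were the 10 genes Ugt2a3, Ugt2b1, Ugt2b5, Ugt2b34, Ugt2b35, Ugt2b36, Ugt2b37, Ugt2b38, Ugt3a2 and Ugdh, of 18193 genes with a probe set of their own on the array. They were found by gene symbol in the platform annotation, and all their probe sets were taken, 11 in all, because Ugt2b34 has 2. Livers and kidneys came from male B6C3F1/Crl mice, the first-generation cross of C57BL/6 and C3H/He, which were 29 to 32 days old when obtained and had 5 days to acclimatise. PB at 0.05% (w/v) was in the drinking water of 10 mice for 28 days, and the other 10 were controls, so the groups are PB liver, control liver, PB kidney and control kidney, with 10 animals each and 1 array per tissue and animal. Tissues with the same donor number came from the same mouse, and each array is called here by its tissue and that number. Liver is the tissue in which PB promotes tumours and kidney was the non-target tissue of the design. The values are MAS5 signals, a linear brightness that summarises the probes of a probe set, and levels are compared only within a probe set, never between genes.

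UGTs sit in the membrane of the endoplasmic reticulum and join a sugar, for most of them glucuronic acid, to drugs, steroids, bile acids, fatty acids and bilirubin, which makes these compounds more soluble in water and ready for bile or urine. The donor is UDP-glucuronic acid, which Ugdh (UDP-glucose dehydrogenase) makes in the cytosol by oxidising UDP-glucose. The liver is the main site of glucuronidation, the kidney has UGTs of its own, and inducers such as PB, which activates the nuclear receptor CAR (Nr1i3), are known to raise the capacity of the liver for it. Transporters of the Abcc family carry the glucuronides out of the cell, and beta-glucuronidase (Gusb) of the lysosome cleaves them again. Ugt2b enzymes are known for conjugating steroids, bile acids and drugs. Human UGT2A3 conjugates bile acids, and human UGT3A2 differs from the others in that it takes UDP-glucose and UDP-xylose as donors.

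The promoters of 6 members are shown because these genes carried the main contrasts of the data: Ugt2b34, Ugt2b35 and Ugdh were the members with the largest increases under PB in liver, and Ugt2b5, Ugt2b37 and Ugt2b38 have closely similar promoters and lay on opposite sides in liver and kidney. Each sequence runs 5′ to 3′ in the direction of the gene through 250 bases before and 50 bases after the start site, from RefSeq on GRCm38.p6. Capitals mark matches on either strand to 5 motifs: the nuclear receptor half-site AGGTCA, the TATA box TATAAA, the xenobiotic response element core GCGTG, the antioxidant response element core TGACNNNGC and the Sp1 GC box GGGCGG.
Ugt2b34, chr5:86906888-86907187, minus strand: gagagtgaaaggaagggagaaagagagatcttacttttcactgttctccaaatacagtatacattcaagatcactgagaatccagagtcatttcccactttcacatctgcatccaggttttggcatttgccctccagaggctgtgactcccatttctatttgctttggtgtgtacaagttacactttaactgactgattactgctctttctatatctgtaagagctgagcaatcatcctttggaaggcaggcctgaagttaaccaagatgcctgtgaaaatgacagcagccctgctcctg
Ugt2b35, chr5:87000610-87000909, plus strand: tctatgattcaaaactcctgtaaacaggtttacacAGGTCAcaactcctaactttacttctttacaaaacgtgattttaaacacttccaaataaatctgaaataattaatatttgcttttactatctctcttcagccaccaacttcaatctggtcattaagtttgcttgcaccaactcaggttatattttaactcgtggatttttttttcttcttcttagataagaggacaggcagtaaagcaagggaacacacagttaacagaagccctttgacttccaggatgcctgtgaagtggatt
Ugdh, chr5:65435793-65436092, minus strand: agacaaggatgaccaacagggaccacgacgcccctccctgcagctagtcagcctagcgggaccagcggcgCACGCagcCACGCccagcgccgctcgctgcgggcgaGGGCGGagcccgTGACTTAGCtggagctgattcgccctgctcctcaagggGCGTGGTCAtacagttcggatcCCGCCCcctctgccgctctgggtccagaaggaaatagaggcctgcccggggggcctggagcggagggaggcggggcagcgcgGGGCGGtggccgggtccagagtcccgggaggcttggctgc
Ugt2b5, chr5:87140291-87140590, minus strand: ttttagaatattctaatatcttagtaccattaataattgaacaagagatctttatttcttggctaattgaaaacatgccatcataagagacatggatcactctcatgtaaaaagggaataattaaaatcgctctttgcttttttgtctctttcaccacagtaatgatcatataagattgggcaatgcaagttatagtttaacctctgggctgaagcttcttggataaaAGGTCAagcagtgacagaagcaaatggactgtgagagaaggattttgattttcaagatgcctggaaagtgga
Ugt2b37, chr5:87254739-87255038, minus strand: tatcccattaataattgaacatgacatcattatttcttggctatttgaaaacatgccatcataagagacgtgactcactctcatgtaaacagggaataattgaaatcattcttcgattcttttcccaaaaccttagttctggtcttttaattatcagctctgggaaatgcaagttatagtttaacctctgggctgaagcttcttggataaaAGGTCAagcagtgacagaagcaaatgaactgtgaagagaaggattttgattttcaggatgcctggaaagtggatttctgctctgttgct
Ugt2b38, chr5:87424154-87424453, minus strand: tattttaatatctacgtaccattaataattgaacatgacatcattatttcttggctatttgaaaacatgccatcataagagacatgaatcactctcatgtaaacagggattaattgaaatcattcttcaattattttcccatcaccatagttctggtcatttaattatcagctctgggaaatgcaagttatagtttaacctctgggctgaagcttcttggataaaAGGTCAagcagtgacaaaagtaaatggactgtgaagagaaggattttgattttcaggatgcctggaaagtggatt

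Of the 10 members, 9 had an entry in the promoter table, all but Ugt3a2. AGGTCA was found in the promoters of 5 of these 9 (Ugt2b5, Ugt2b35, Ugt2b36, Ugt2b37 and Ugt2b38), against 16.3% of the 32851 promoters in the table. The first base of the match lay at -22 from the start site in Ugt2b5, at -25 in Ugt2b36 and Ugt2b38, at -39 in Ugt2b37 and at -215 in Ugt2b35. In Ugt2b5, Ugt2b36, Ugt2b37 and Ugt2b38 it sat in a shared run of 22 bases, gataaaAGGTCAagcagtgaca, which no other promoter of the table held. Ugdh alone among the 9 had matches to GCGTG (32.4% of all promoters), TGACNNNGC (12.4%) and GGGCGG (35.7%), and 1 of its TGACNNNGC matches overlapped a GCGTG match. None of the 9 had TATAAA (13.6%), and the promoters of Ugt2a3, Ugt2b34 and Ugt2b1 held no match to any of the 5. A further motif searched, the HNF1 half-site GTTAAT (7.10% of all promoters), was found among the 9 only in Ugt2a3, at -54 and -47. In pairwise global alignments 91.3% of the 300 bases were identical between Ugt2b37 and Ugt2b38, 87.0% between Ugt2b5 and Ugt2b38 and 82.7% between Ugt2b5 and Ugt2b37, and 62.3% between Ugt2b34 and Ugt2b35. These matches are letters found in a window and were not tested for binding.

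Cyp2b10, the P450 gene known for its induction by PB, followed the labels: on the probe set 1422257_s_at it averaged 11407 ± 1305 in PB livers and 16.0 ± 13.5 in control livers (SD, n = 10 each), and no kidney exceeded 70.9. All 8 hepatocyte markers averaged at least 50 in livers, and all 8 proximal tubule markers did so in kidneys. In each kidney group 4 hepatocyte markers also reached 50, as did 2 proximal tubule markers in control livers and 0 in PB livers. The summed hepatocyte markers were at least 125068 in livers and at most 13687 in kidneys. For the summed proximal tubule markers the values were at least 44426 in kidneys and at most 1733 in livers. A few arrays held transcripts of another tissue or cell type. Among livers, the kidney gene Kap reached 1230.2 in control liver 5, 221.5 in control liver 3 and 234 in PB liver 17, and the epithelial gene Epcam 180.4 in control liver 2. Among kidneys, Alb reached 1029.6 in PB kidney 19, against 174 in the highest of the other PB kidneys, and 923 in control kidney 3. Control kidneys had a mean Alb of 332 ± 314 (SD) and a median of 169.8, against 209.6 ± 289.8 and 119 in PB kidneys. The control kidneys high in Alb were not left out together. For the members called in liver and for Nr1i3, results are given below with and without the 4 livers named. Other liver results are given only with them. In kidney the members were also tested without PB kidney 19. In whole tissue, fewer cells of a type and less RNA per cell cannot be told apart.

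**Figure D1:**
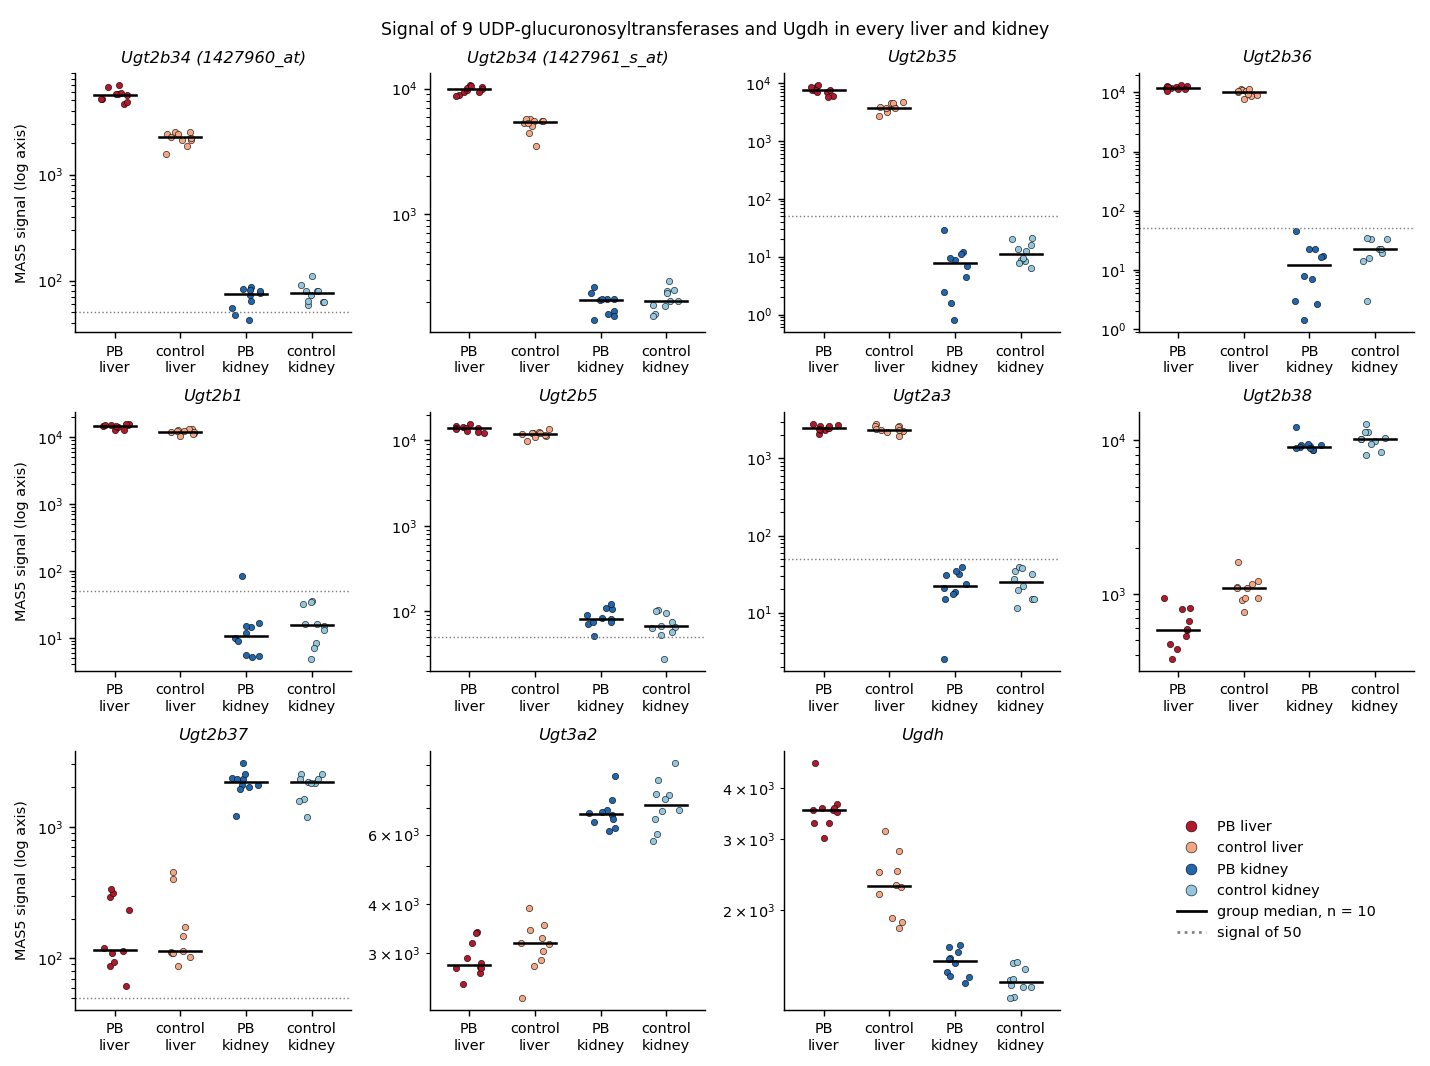
MAS5 signal (log axis) of the 11 probe sets in each of the 10 PB livers, 10 control livers, 10 PB kidneys and 10 control kidneys, with the group median as a bar and a dotted line at a signal of 50 where values come near it. Liver points lie above kidney points for 8 probe sets and below them for Ugt2b38, Ugt2b37 and Ugt3a2, and the PB and control livers do not overlap for Ugt2b34 (both probe sets) and Ugt2b35.

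The first comparison asks which members PB changed in liver. By limma on log2 signal, with Benjamini-Hochberg adjusted p under 0.05 over all 18981 probe sets tested, 7 of the 11 member probe sets were higher in PB livers and 1 was lower, against 5.88% higher and 6.43% lower among all probe sets. In genes, 6 of 10 were higher (Ugt2b34, Ugt2b35, Ugdh, Ugt2b36, Ugt2b1 and Ugt2b5), 1 was lower (Ugt2b38), and Ugt2a3, Ugt2b37 and Ugt3a2 did not pass the test. The median log2 fold change of the 11 probe sets was 0.27, against -0.01 over all probe sets. PB and control livers did not overlap in 3 of the 11 probe sets, all higher, where 1.02% of all probe sets were non-overlapping and higher and 0.337% non-overlapping and lower. With a ratio of mean signals of at least 1.5 and a p of at most 0.001, 4 of the 11 were higher (1.52% of all) and 1 lower (0.875% of all) with the limma p, and likewise 4 (1.39% of all) and 1 (0.580% of all) with the p of the methods' t-test.

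Ugt2b34 had the largest increase. On the probe set 1427960_at its signal was 4623 at the lowest, 5635 at the median and 6997 at the highest in PB livers, against 1579.6, 2244 and 2544 in control livers. Every PB liver was above every control liver by a wide gap. The mean was 5644 ± 762 in PB livers and 2201 ± 299 in control livers (SD, n = 10 each), a ratio of 2.56 and a log2 fold change of 1.36 (standard error, SE, 0.08, 95% interval 1.19 to 1.53, adjusted p = 3.16e-11 from limma). The other probe set, 1427961_s_at, whose suffix says that its probes can match related transcripts, gave 8721, 9872 and 10704 in PB livers, against 3503, 5391 and 5776 in control livers. It too separated the groups completely, with a smaller ratio of 1.90 (log2 fold change 0.94, SE 0.07, adjusted p = 2.35e-09). Both probe sets had the same direction, and their 95% intervals, 1.19 to 1.53 and 0.79 to 1.09, did not overlap.

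Ugt2b35, its near neighbour on chromosome 5, was the other UGT with about a doubling. PB livers had 5682, 7581 and 9236 (lowest, median, highest), against 2723, 3749 and 4622 in control livers. Again no control liver reached the lowest PB liver. The mean was 7487 ± 1159 in PB livers and 3803 ± 612 in control livers, and the ratio was 1.97 (95% interval of the log2 fold change 0.78 to 1.18, adjusted p = 1.51e-07 from limma).

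Ugdh, which makes UDP-glucuronic acid, was 52.6% higher. Its signal was 3021, 3529 and 4616 in PB livers (lowest, median, highest) and 1807, 2293 and 3130.0 in control livers. In 9 of 10 PB livers it exceeded every control liver, and the 1 overlap came from control liver 2, the highest control, and PB liver 15, the lowest PB liver. The log2 fold change was 0.62 (SE 0.09, adjusted p = 3.62e-05 from limma), and without control liver 2 it was 0.67 (adjusted p = 3.90e-06).

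Ugt2b36, Ugt2b1 and Ugt2b5 rose by less, and their groups overlapped. Ugt2b36 had 10496, 12112 and 13371 in PB livers, against 7604, 10304 and 11429.8 in control livers, a rise of the mean of 21.3% (log2 fold change 0.29, SE 0.07, adjusted p = 0.00518). Ugt2b1 had 12898, 14964 and 15864 in PB livers, against 10406, 12161 and 13372 in control livers, a rise of 20.2% (log2 fold change 0.27, SE 0.05, adjusted p = 7.27e-04). Ugt2b5 had 12189.8, 14042 and 15670.4 in PB livers, against 9930.5, 12000.1 and 13553 in control livers, a rise of 16.2% (log2 fold change 0.22, SE 0.05, adjusted p = 0.00791). Of the 10 PB livers, 7, 8 and 6 lay above every control liver for Ugt2b36, Ugt2b1 and Ugt2b5, in that order. These are the calls that depended on the fit: with all 40 arrays in 1 limma fit, where the kidneys enter the spread, the adjusted p was 0.687, 0.632 and 0.326 in the same order, and with arrays centred on their median Ugt2b5 had 0.0600.

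Ugt2b38 was the 1 member that fell. PB livers had 378, 586 and 937 (lowest, median, highest), against 767, 1094 and 1621 in control livers. In 7 of 10 PB livers the signal was below every control liver, and the others overlapped with the low controls. The mean was 622 ± 181 in PB livers and 1088 ± 232 in control livers, 42.9% lower (log2 fold change -0.84, SE 0.15, adjusted p = 4.29e-04 from limma). Control liver 5, which held the highest signal of the kidney gene Kap, had the lowest Ugt2b38 of the control livers, 766.9. The part of kidney tissue in the Ugt2b38 signals was not tested. Without the 4 livers named above the log2 fold change was -0.96 (adjusted p = 3.25e-04).

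The remaining 3 UGTs did not pass the test in liver. Ugt2a3 had 2065, 2491 and 2765 in PB livers and 1936, 2353 and 2804 in control livers, a log2 difference of 0.05 with a 95% interval of -0.08 to 0.18. Ugt3a2 had 2504, 2808 and 3394 in PB livers and 2314, 3179 and 3920.1 in control livers, a difference of -0.11 with an interval of -0.27 to 0.05. The groups overlapped widely in both genes, and the intervals leave room for changes of the size seen for Ugt2b5 only on the side of a decrease of Ugt3a2.

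Ugt2b37 was low in liver and uneven among the animals. In PB livers 11, 12, 17 and 18 its signal was 292.2, 234.6, 313.3 and 336.1, while the other PB livers had 62.0 to 119.5. In control livers 1 and 2 it was 399.4 and 455.9, while the other control livers had 88.1 to 173.7. High animals thus occurred in both groups, and the log2 difference of -0.03 had an interval of -0.73 to 0.68, wide enough to hold a change as large as that of Ugdh. The kidney gene Kap was at 18.4, 2.2, 234.0 and 6.8 in PB livers 11, 12, 17 and 18 and at 1.5 and 4.4 in control livers 1 and 2. The part of kidney tissue in these Ugt2b37 signals was not tested. Ugt2b38 also had its highest PB signals in livers 17, 12 and 11 (937.4, 814.6 and 800.8) and its highest control signal in liver 1 (1621.3), but PB liver 18 and control liver 2, the highest of their groups for Ugt2b37, had 584.1 and 1118.7, near the group medians of Ugt2b38. These livers were singled out after their values had been seen. Over all 20 livers, with the group means removed, Pearson's r between Ugt2b37 and Ugt2b38 was 0.75. With Ugdh and Ugt3a2, Ugt2b37 had r = 0.65 and -0.67.

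**Figure D2:**
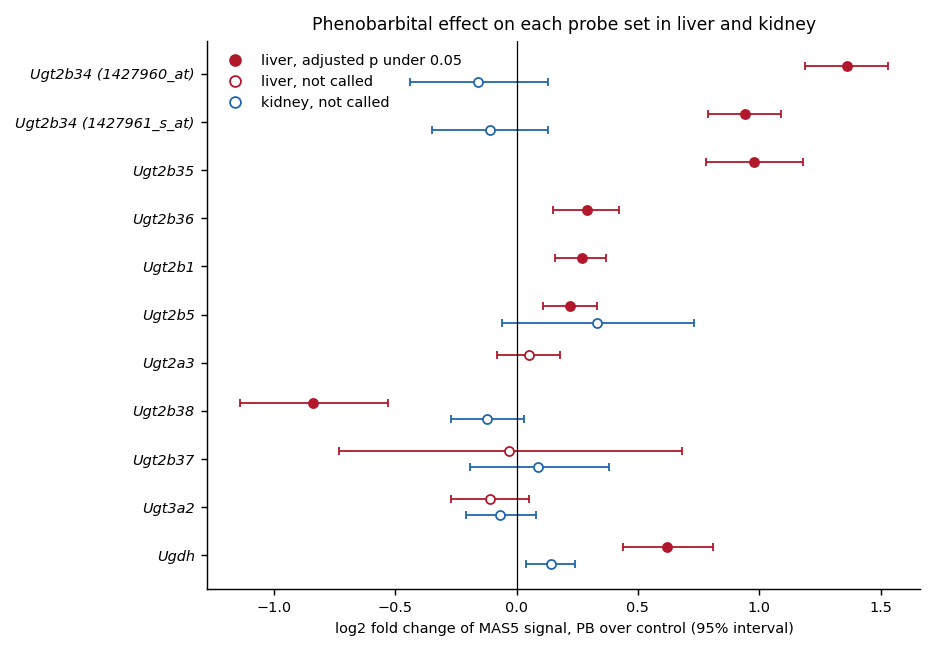
Log2 fold change of the MAS5 signal, PB over control, for each member probe set in liver (red) and, where it was tested, in kidney (blue), with 95% intervals from limma and filled points where the adjusted p was under 0.05. In liver 7 probe sets lie right of 0 and Ugt2b38 left of it as filled points, and no kidney point is filled.

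Without control livers 2, 3 and 5 and PB liver 17, a choice made after the data were seen, again 7 of the 11 probe sets were called higher and 1 lower. The share of all probe sets called in that fit is not given here. The log2 fold change was then 1.25 and 0.86 for the 2 probe sets of Ugt2b34, 0.86 for Ugt2b35, 0.61 for Ugdh, 0.24 for Ugt2b36, 0.26 for Ugt2b1 and 0.19 for Ugt2b5. Markers of other liver cells moved as well, in the main fit, where 5.88% of all probe sets were called higher and 6.43% lower. Of the stellate cell and fibroblast list, 4 of 5 genes tested fell in PB livers (Des, Lrat, Dcn and Reln) and none rose, and the signal summed over the 6 genes of that list was 2137 to 2970.4 in PB livers against 2516 to 3373 in control livers. Of the macrophage list 1 of 5 genes tested fell (C1qa), and of the endothelial list 1 of 4 (Stab2), while Adgre1 averaged 219 in PB livers and 193 in control livers and Cdh5 95.8 in PB livers and 81.5 in control livers, neither called. Of the hepatocyte markers 2 of 8 fell (Fgb and Ahsg), and their summed list was 125068 to 183941 in PB livers against 142602 to 182384 in control livers. Their part in the results above was not tested.

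In kidney no member was called. Ugt2a3, Ugt2b1, Ugt2b35 and Ugt2b36 averaged under 50 in both kidney groups and were not tested. Of the 7 probe sets of 6 genes that were tested, 0 passed the adjusted p in limma, against 1.79% higher and 1.47% lower (3.26% in either direction) of all 19229 probe sets tested, and 0 did so with the methods' t-test on linear signal after the same adjustment. No member separated the kidney groups completely either, where 0.104% of all probe sets were non-overlapping and higher and 0.0572% non-overlapping and lower. At an unadjusted p under 0.05 there was 1, Ugdh. It had 1324, 1499 and 1645 in PB kidneys (lowest, median, highest), against 1218, 1329.6 and 1492 in control kidneys. In 5 of 10 PB kidneys it was above every control kidney, and the mean was 10.5% higher (log2 fold change 0.14, SE 0.05, adjusted p = 0.104 from limma). Ugt2b34 had 42.3 to 87.8 in PB kidneys and 58.6 to 109 in control kidneys on 1427960_at, a log2 difference of -0.16 with a 95% interval of -0.44 to 0.13. The size of its increase in liver lies outside that interval. Ugt2b38 had 8585, 9093 and 12176 in PB kidneys and 8065, 10205 and 12783 in control kidneys, a difference of -0.12 (interval -0.27 to 0.03). Ugt3a2 differed by -0.07 (-0.21 to 0.08), Ugt2b37 by 0.09 (-0.19 to 0.38) and Ugt2b5, with a mean of 85.8 in PB kidneys and 70.4 in control kidneys, by 0.33 (-0.06 to 0.73). For Ugt2b37 and Ugt2b5 these intervals hold increases as large as the smaller ones of liver (0.22 to 0.29), and for Ugt2b38 and Ugt3a2 they end below that size. Leaving out PB kidney 19 called none of the 7 either.

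Whether the PB effect differed between the tissues was tested directly, as the PB effect in liver minus that in kidney over all 40 arrays. It was called higher in 4 of the 11 probe sets and lower in 1, against 3.13% and 3.08% (6.21% in either direction) of all 21866 tested. The difference was 1.52 (SE 0.17, adjusted p = 1.19e-08 from limma) and 1.04 (SE 0.14, adjusted p = 2.54e-06) for the 2 probe sets of Ugt2b34, and 0.48 (SE 0.10, adjusted p = 0.00245) for Ugdh. For Ugt2b38 it was -0.72 (SE 0.17, adjusted p = 0.00661), so the PB effect was lower in liver than in kidney. Ugt2b35 had 1.98 (SE 0.49, adjusted p = 0.00863), but its kidney signals, all at or under 29.1, set much of that value. With signals under 50 set to 50 it was 0.98 (adjusted p = 2.35e-09 from limma). That floor makes all its kidneys equal, so 0.98 is the liver effect alone and cannot show a difference between tissues. The smaller liver increases of Ugt2b36, Ugt2b1 and Ugt2b5 were not shown to differ from the kidney, with 1.32, 0.62 and -0.12 (adjusted p = 0.184, 0.497 and 0.812). For Ugt2b36 the floor at 50 gave 0.29 with an adjusted p of 0.00690 from limma. All its kidney signals were under 50 too, so this value is again the liver effect alone.

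The next comparison asks where the members are expressed. Between liver and kidney of the same mice all 11 probe sets differed, 8 of them higher in liver and 3 higher in kidney, both in PB mice (35.1% higher, 45.1% lower and 80.2% in either direction among all 21377 tested) and in control mice (35.0%, 43.2% and 78.2% of 21188). In each of them every liver was on the same side of every kidney, where 19.2% of all probe sets were non-overlapping and higher in liver of PB mice and 26.8% non-overlapping and lower (17.9% and 25.5% in control mice). The median log2 difference, liver minus kidney, was 6.38 for the members in PB mice and 4.86 in control mice, against -0.11 and -0.09 over all probe sets.

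Most Ugt2 genes were liver genes. Where a kidney mean was under 50, the ratio is given as at least the liver mean over 50. Ugt2b1 was at least 292-fold higher in liver of PB mice and at least 243-fold in liver of control mice, with kidney medians of 10.8 and 15.5. Ugt2b36 was at least 242-fold and 199.9-fold higher, Ugt2b35 at least 149.7-fold and 76.1-fold, and Ugt2a3 at least 49.8-fold and 48.0-fold, in PB and in control mice. In these 4 genes 1 kidney stood above 50 in 1 gene, PB kidney 19 with 84.0 for Ugt2b1, against 16.8 in the highest of the other PB kidneys. It also held the highest kidney signals of Ugt2b35 (29.1) and Ugt2b36 (45.6), beside its Alb signal of 1029.6, but not of Ugt2a3, with 15.2 against a PB kidney median of 22.4. Ugt2b5 was measurable in kidney, and its liver mean was 161-fold higher in PB mice and 169-fold in control mice. For Ugt2b34 the ratio was 81.8 in PB mice and 28.9 in control mice on 1427960_at, and 50.2 and 24.5 on 1427961_s_at. Ugdh, needed in every tissue that makes glucuronides or glycosaminoglycans, differed least of the members higher in liver, with 2.39-fold in PB mice and 1.73-fold in control mice. Its levels ran in the order PB liver, control liver, PB kidney and control kidney, of which the kidney groups did not differ by the adjusted p. The largest adjusted p among the 11 probe sets was 5.71e-12 in PB mice and 1.08e-08 in control mice (limma).

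Ugt2b37, Ugt2b38 and Ugt3a2 ran the other way. Ugt2b38 was 15.0-fold lower in liver than in kidney of PB mice and 9.36-fold lower in control mice. Ugt2b37 was 12.5-fold and 11.4-fold lower, with 1212 to 3081 in PB kidneys and 1184 to 2522 in control kidneys. Ugt3a2 was 2.35-fold and 2.28-fold lower, so it was well measured in both tissues. In the RefSeq gene table of GRCm38.p6 the 8 Ugt2 members lie in a row on chromosome 5, in the order Ugt2b34, Ugt2b1, Ugt2b35, Ugt2b36, Ugt2b5, Ugt2b37, Ugt2a3 and Ugt2b38, with Ugdh apart on the same chromosome and Ugt3a2 on chromosome 15. The kidney genes Ugt2b37 and Ugt2b38 therefore stand on both sides of the liver gene Ugt2a3, and the liver gene Ugt2b5, whose promoter shares 87.0% of its bases with that of Ugt2b38, precedes Ugt2b37. The 2 UGTs with the largest PB increases, Ugt2b34 and Ugt2b35, have Ugt2b1 between them, which rose by 20.2%.

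**Figure D3:**
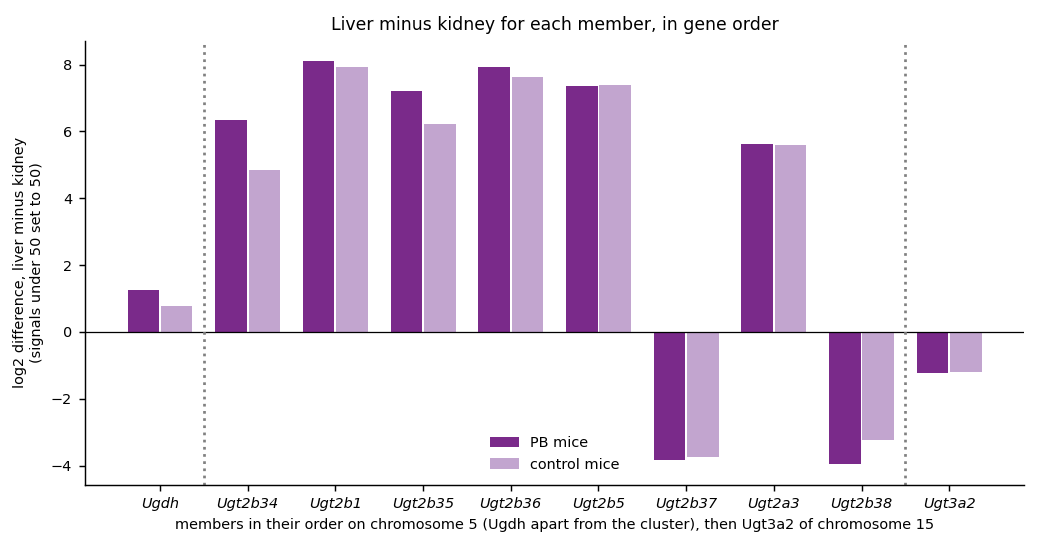
Log2 difference in MAS5 signal, liver minus kidney, of each member in PB mice (dark) and control mice (light), with signals under 50 set to 50 and 1427960_at shown for Ugt2b34. Members stand in their order on chromosome 5, with Ugdh at the left and Ugt3a2 of chromosome 15 at the right. Bars of Ugt2b37, Ugt2b38 and Ugt3a2 point down in both groups of mice, and the others point up.

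Within the kidneys, Ugt2b38 and Ugt3a2 varied from animal to animal together with some genes of the nephron. The 3 members higher in kidney were set against 8 genes of the proximal tubule, the segment that reabsorbs most of the filtered solutes, and 5 genes of other nephron segments, in each kidney group, 78 relations in all, chosen after the values had been seen. Ugt3a2 had a positive Pearson correlation with an adjusted p under 0.05 with 4 of the 8 proximal tubule genes in PB kidneys and 4 in control kidneys, and Ugt2b38 with 3 and 4. The genes of other segments did so as well, 1 of 5 in PB kidneys and 3 of 5 in control kidneys for Ugt3a2, and 2 and 3 for Ugt2b38. The relation was therefore not particular to the proximal tubule. Within that list Slc5a12 ran the other way in control kidneys, with r = -0.81 for Ugt2b38 (permutation p = 0.00400, adjusted 0.0149, rho = -0.82, p = 0.00527, adjusted 0.0228, r = -0.87 without the 2 kidneys farthest from its median). Slc22a8 had r = 0.09 with Ugt2b38 in control kidneys and -0.42 in PB kidneys (permutation p = 0.812 and 0.222, adjusted 0.856 and 0.315). Akr1a1, on neither list, was highest in kidney 14 among PB kidneys on all its probe sets. Among control kidneys it was highest in kidney 4 and lowest in kidney 6. Ugt2b38 and Ugt3a2 shared these extremes. The share of all probe sets that varied with them was not counted, so the relation is not shown to be particular to the nephron.

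The plot of kidney signals shows 1 of the nephron genes, Slc34a1, a phosphate transporter of the proximal tubule. With Ugt3a2 it had r = 0.96 in PB kidneys (permutation p = 1.10e-04, adjusted 9.53e-04) and rho = 0.95 (p = 1.20e-04, adjusted 0.00127), and r = 0.80 without the 2 farthest kidneys. In control kidneys r was 0.98 (permutation p = 1.00e-05, adjusted 1.95e-04) and rho 0.98 (p = 3.00e-05, adjusted 5.85e-04), with r = 0.95 without the 2 farthest, 1.00e-05 being the smallest p that these permutations can give. With Ugt2b38 it had r = 0.92 in PB kidneys (permutation p = 0.0122, adjusted 0.0341) but rho = 0.65 (p = 0.0497, adjusted 0.121) and r = 0.56 without the 2 farthest, so there the relation rested on few kidneys. PB kidney 14, the highest for Slc34a1, Ugt2b38 and Ugt3a2, was the lowest PB kidney for Slc22a8 (1897) and Slc5a12 (1216). In control kidneys Ugt2b38 and Slc34a1 had r = 0.98 (permutation p = 1.00e-05, adjusted 1.95e-04), rho = 0.99 (p = 3.00e-05, adjusted 5.85e-04) and r = 0.95 without the 2 farthest. Ugt2b37 had r = 0.18 with Slc34a1 in PB kidneys and -0.66 in control kidneys (permutation p = 0.514 and 0.0376, adjusted 0.635 and 0.0807, rho = 0.32 and -0.48 with adjusted p of 0.533 and 0.316, r = 0.62 and -0.48 without the 2 farthest). The summed signal of the 8 proximal tubule markers was 44426 to 56775 in PB kidneys (median 50091) and 44636 to 62487 in control kidneys (median 52294), and its part in the signals of these members was not tested.

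**Figure D4:**
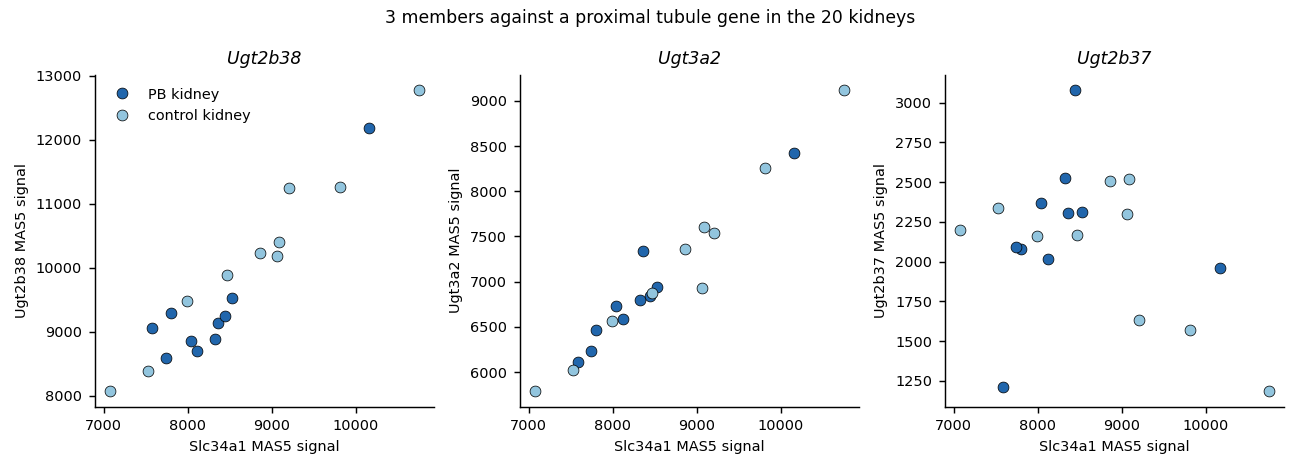
MAS5 signal of Ugt2b38, Ugt3a2 and Ugt2b37 against that of Slc34a1 in the 10 PB kidneys (dark) and 10 control kidneys (light), 1 point per animal on linear axes that do not start at 0. Points of Ugt3a2 and Ugt2b38 lie along a rising line, with r = 0.98 in control kidneys for both, and those of Ugt2b37 do not. Genes of other nephron segments also followed Ugt3a2 and Ugt2b38, and the share of all probe sets that did so was not counted.

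The steps around glucuronidation were read from lists of other genes. The list of UDP-sugar supply had 8 genes measured (Pgm1, Pgm2, Ugp2, Uxs1, Gys2, Galt, Slc35d1 and Enpp3). By the highest probe set of each gene limma called 0 of 8 in liver and 0 of 8 in kidney (median log2 fold change 0.09 and 0.02, against -0.01 and 0.00 over all probe sets). Among all probe sets 12.3% were called in liver and 3.26% in kidney. At an unadjusted p under 0.05 the list had 1 gene in liver (Ugp2) and 2 in kidney (Gys2 and Uxs1), and the methods' t-test called 0 of its genes in both. Ugp2, the enzyme that makes the UDP-glucose that Ugdh oxidises, had 4624 ± 646 in PB livers and 3949.6 ± 573 in control livers on its highest probe set (log2 fold change 0.23, SE 0.09, adjusted p = 0.0834). Its probe set 1434485_a_at, singled out after the values had been seen, passed the test with 3733 ± 618 in PB livers and 2992 ± 437 in control livers (0.32, SE 0.10, adjusted p = 0.0301). The other UGT genes with their own probe sets, Ugt3a1 and Ugt8a, gave 0 calls by limma of 1 gene tested in liver and of 2 in kidney, with Ugt3a1 of liver at an unadjusted p of 0.0290 and an adjusted p of 0.133, and 0 by the methods' t-test.

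Genes of glucuronide export had the largest median among these lists in liver, 1.23, against -0.01 over all probe sets. All 4 were called in liver, 3 of them higher and 1 lower, and 0 of the 3 tested in kidney, where Abcc2 alone had an unadjusted p under 0.05. Among all probe sets 5.88% were called higher and 6.43% lower in liver, and 3.26% in either direction in kidney. Abcc3, which returns glucuronides to the blood, had 1445, 1645 and 1966 in PB livers (lowest, median, highest), against 214, 534 and 618 in control livers. Abcc2, which sends them into bile, had 1167, 1774 and 2098 in PB livers, against 755, 1057 and 1376 in control livers, a ratio of 1.65 (log2 fold change 0.72, SE 0.10, adjusted p = 4.02e-05). Abcc3 separated the groups completely and Abcc2 nearly so, with 9 of 10 PB livers above every control liver. Abcg2, another pump of the bile canaliculus, was lower, at 1412 ± 113 in PB livers and 1673 ± 157 in control livers (log2 fold change -0.24, SE 0.06, adjusted p = 0.00643). Abcc4 of the blood side rose to 103 ± 29.7 in PB livers, against 31.3 ± 9.38 in control livers, and was at least 2.05-fold higher when the control mean is set to 50 (adjusted p = 9.95e-07).

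In kidney 1 gene of these lists was called, and it was lower, where 1.47% of all probe sets were called lower. Gusb, which cleaves glucuronides, was called alone of 7 genes tested in the list of glucuronate use and glucuronide cleavage there, and both its probe sets fell. On 1448124_at PB kidneys had 428, 562 and 854 (lowest, median, highest), against 557, 1109.7 and 1726 in control kidneys. In 5 of 10 PB kidneys it was below every control kidney, and the mean was 583 ± 135 in PB kidneys and 1099 ± 337 in control kidneys (log2 fold change -0.88, SE 0.16, adjusted p = 0.00328 from limma). On 1430332_a_at the mean was 126 ± 38.1 in PB kidneys and 263 ± 83.6 in control kidneys (log2 fold change -1.05, SE 0.17, adjusted p = 0.00134). In liver Gusb had 285 ± 22.5 in PB animals and 301 ± 24.8 in control animals on 1448124_at (log2 difference -0.08, 95% interval -0.21 to 0.04), and the PB effect in liver minus that in kidney was 0.80 (SE 0.18, adjusted p = 0.00351). The gene called in liver in this list was Akr1a1, a reductase that takes glucuronate towards gulonate, with a rise of 0.16 on the log2 scale (SE 0.04, adjusted p = 0.0158) on its highest probe set, a call lost with no filter (adjusted p = 0.0907), with arrays centred on their median (0.121) and with all 40 arrays in 1 fit (0.0690). Its other probe sets, 1430124_x_at, 1435011_x_at and 1451035_a_at, were called higher too (adjusted p = 0.00397, 5.61e-04 and 1.19e-04 from limma).

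Of 12 regulators measured in liver, 2 were higher and 2 lower, and 0 of 8 passed in kidney, also at an unadjusted p under 0.05 and with the methods' t-test. Among all probe sets limma called 5.88% higher and 6.43% lower in liver, and 3.26% in either direction in kidney. Ahr, the receptor that acts through the GCGTG core, had 776, 1064 and 1352 in PB livers, against 257, 516 and 664 in control livers, without overlap (log2 fold change 1.13, SE 0.14, adjusted p = 4.78e-06). Nr1i3, which encodes CAR, was slightly higher, with 463 ± 48.1 in PB livers and 373 ± 64.1 in control livers (0.32, SE 0.09, adjusted p = 0.0212), and it lost the call without the 4 livers named above (0.26, adjusted p = 0.0791), with arrays centred on their median (0.0583) and with all 40 arrays in 1 fit (0.527). Foxa3, a forkhead factor of hepatocytes, was lower, with 359.9 ± 62.0 in PB livers and 609 ± 189 in control livers (-0.71, SE 0.16, adjusted p = 0.00361), a call lost with all 40 arrays in 1 fit (-0.71, adjusted p = 0.0601). Rxra, the partner of CAR, was lower on its highest probe set only, with 709.8 ± 60.2 in PB livers and 848 ± 128 in control livers (-0.25, SE 0.07, adjusted p = 0.0288), while 1425762_a_at had a difference of 0.05 (adjusted p = 0.768). The Rxra call was lost with no filter (-0.25, adjusted p = 0.0531), with the methods' t-test (-0.26, adjusted p = 0.0540) and without PB liver 18 (-0.23, adjusted p = 0.0574), PB liver 19 (-0.24, 0.0506) or control liver 8 (-0.24, 0.0510).

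**Figure D5:**
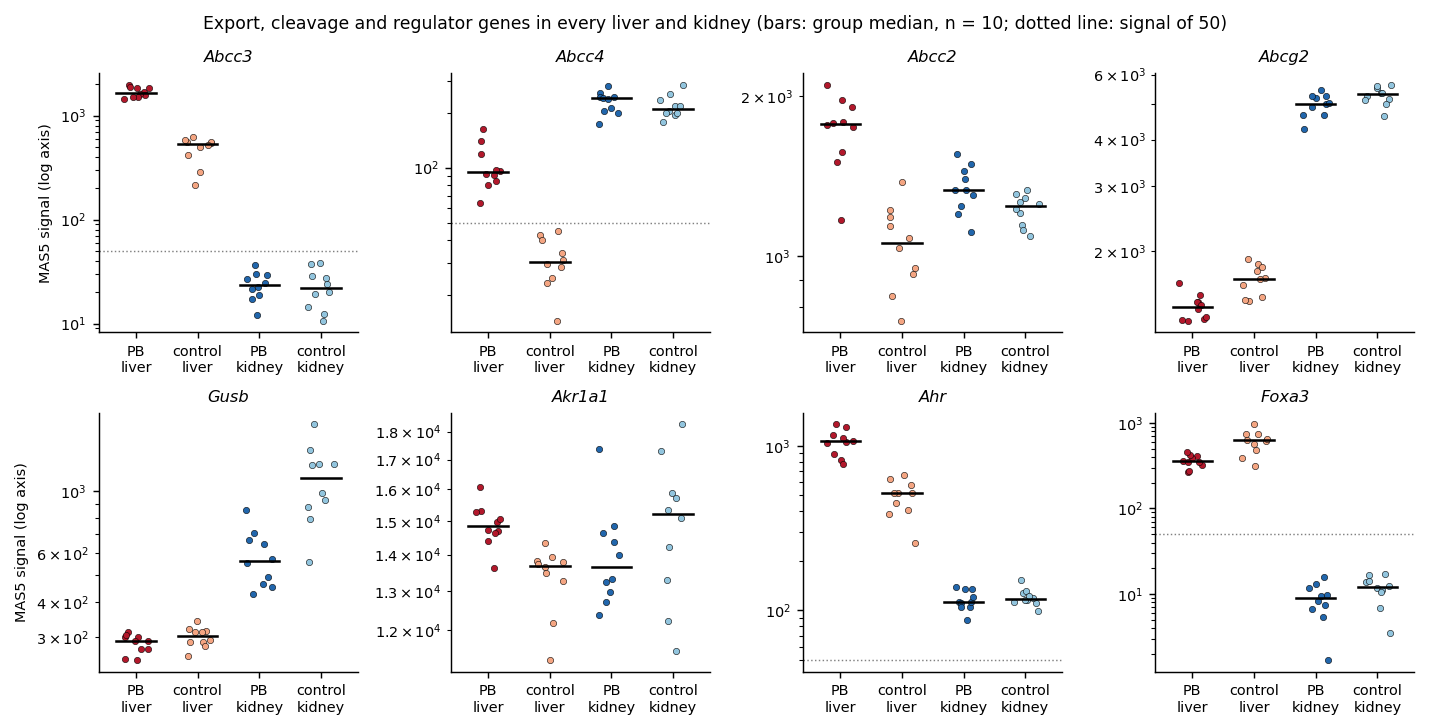
MAS5 signal (log axis) of Abcc3, Abcc4, Abcc2, Abcg2, Gusb, Akr1a1, Ahr and Foxa3 in each of the 40 arrays, 10 per group, with the group median as a bar and a dotted line at a signal of 50 where values come near it. Abcc3, Abcc4 and Ahr are higher in PB livers with no overlap, and Gusb is lower in PB kidneys with a median of 562 against 1109.7 in control kidneys.

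Members varied from animal to animal in ways they partly shared. Control liver 2 was the lowest control liver for 8 of the 11 probe sets (both of Ugt2b34, Ugt2b35, Ugt2b36, Ugt2b1, Ugt2b5, Ugt2a3 and Ugt3a2) and the highest for Ugt2b37 and Ugdh. It was also the liver with Epcam at 180.4. Leaving it out moved the log2 fold change of Ugt2b34 to 1.31 and 0.88, that of Ugt2b35 to 0.93 and that of Ugt2b5 to 0.19 (adjusted p = 0.0111), and ended no call of a member. Ranked by Pearson's r over the 20 livers with the group means removed, the genes most like Ugt2b34 on 1427960_at were Txnrd3 (0.81), Ccni (0.80) and Ugt2b35 (0.80), and those most like Ugdh were Ccnd1 (0.84), Gss (0.83) and Hspa4 (0.82). Of these, Ccnd1 was lower under PB, with 183 in PB livers and 294 in control livers (log2 fold change -0.69, adjusted p = 0.00168), so it went with Ugdh among animals and against it between the groups.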

How the data were processed

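RNA of 20 livers and 20 kidneys was hybridised to Affymetrix mouse genome arrays, 1 array per tissue and animal. The deposited intensity values are MAS5 signals, which the authors computed from the scans (GCOS and MAS5 are named, their versions are not given in the sources used here) and scaled to a trimmed mean of 150 on each array; the 2% trimmed means of the 40 arrays were 148.97 to 149.32 and their medians 30.0 to 37.2. No raw scans were used. The table held 45037 probe sets, of which 34945 had 1 gene symbol in the platform annotation, 932 several and 9160 none. Probe sets with several symbols, 4 of UGT genes among them, were not used, and the Ugt1a genes, Ugt2a1, Ugt2a2 and some genes of the other lists were not analysed here. No 2 arrays were duplicates (highest correlation 0.9468).

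Signals under 1 were set to 1 and log2 values were fitted with limma 3.58.1 (R 4.3.3; lmFit, eBayes with trend, two-sided) for probe sets whose mean reached 50 in a group compared, with Benjamini-Hochberg adjustment over all probe sets tested and a threshold of 0.05. The scripts were tested on simulated data. PB was compared with control within each tissue, liver with kidney within PB and within control mice, and the PB effect between tissues over all 40 arrays. A mean under 50 was read as a bound at 50. Donor numbers pair a liver and a kidney of 1 animal: over 15416 probe sets the correlation of their deviations from the group means had a median of 0.0755 (-0.074 to 0.211), and in 10 of 20 mice the liver's best match among the kidneys was the animal's own. Named were all members, the genes of the other lists called in either tissue (up to 4 per list by size), Cyp2b10, and the 3 genes most correlated with Ugt2b34 and Ugdh over the livers. A gene of a list stands by its highest probe set. The members and lists were chosen with earlier results of these data known. Alternatives were other filters, floors, scalings and fits, the methods' t-test on linear signal, the study's thresholds, the array number as a covariate, the animal as a block and leaving out each array. Promoters came from RefSeq (GRCm38.p6) and were aligned globally (match 1, mismatch -1, gap opening -2, gap extension -0.5). Permutation tests used 100000 resamples (SciPy 1.17.1, NumPy 2.4.6, Python 3.11.15), tables pandas 2.3.3 and figures matplotlib 3.10.9. The number of arrays limits the precision, and a MAS5 signal carries no count from which a depth could be given.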

Additional observations from a re-analysis of the deposited data

Results flagged for a closer look

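In 5 of 69 groups of 10 signals checked, the highest animal stood far from the rest of its group by Dixon's criterion, which chance meets in about 1 in 20 groups. PB kidney 14 was such an animal in 3 genes: Ugt2b38 had 12176 there (next highest PB kidney 9522), Ugt3a2 had 8428 (next 7339.6) and Akr1a1 had 17387 (next 14833). It also had the highest Slc34a1 of the PB kidneys, and the lowest Slc22a8 and Slc5a12. Ugdh was at 4616 in PB liver 12 (next 3659.8), and Rxra at 1159.8 in control liver 6 (next 895).

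The PB effect differed between liver and kidney, by the limma test of the difference itself, for 4 members. It also did so for 6 of the named genes of the other lists, each taken by its highest probe set. Nr1i2, outside the rule for named genes, was called higher as well. The difference on the log2 scale, liver minus kidney, was 1.52 and 1.04 for the probe sets of Ugt2b34 (adjusted p = 1.19e-08 and 2.54e-06), 1.98 for Ugt2b35 (adjusted p = 0.00863), 0.48 for Ugdh (adjusted p = 0.00245) and -0.72 for Ugt2b38 (adjusted p = 0.00661). Among the transporters the difference was 1.77 for Abcc3 (adjusted p = 4.59e-05), 1.65 for Abcc4 (adjusted p = 5.66e-07) and 0.60 for Abcc2 (adjusted p = 0.00122). All kidney signals of Ugt2b35 were at or under 29.1, and Abcc3 averaged 24.0 in PB kidneys and 23.3 in control kidneys. With kidney means under 50, both genes were left untested within kidney, and such low signals enter their differences between tissues. The difference was 1.19 for Ahr (adjusted p = 4.18e-06), 0.80 for Gusb (adjusted p = 0.00351) and -0.34 for Rxra (adjusted p = 0.0432). The Rxra call was lost with no filter (adjusted p = 0.0794) and after quantile normalization (adjusted p = 0.0659), and 1425762_a_at of Rxra had 0.08 (adjusted p = 0.796). Akr1a1 was not called on its highest probe set (0.24, adjusted p = 0.0954). On its other probe sets it was called, with 0.24, 0.32 and 0.33 (adjusted p = 0.0163, 0.00265 and 2.78e-04 from limma). For Gusb the difference came with a fall in kidney, and for the other genes with a change in liver.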

How the results depend on the processing

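The number of member probe sets called higher in liver was 7 in each fit that left out 1 array (7 to 7, with 1 to 1 lower), and 0 to 0 were called in kidney. It was 4 with the study's thresholds and the limma p (1.52% of all probe sets), and 4 with those thresholds and the methods' t-test (1.39%). It was also 4 with all 40 arrays in 1 fit. There the kidneys enter the spread, and Ugt2b1 and Ugt2b36 averaged under 50 in kidney. For the joint fit and the fits without 1 array the share of all probe sets called is not given here, so those counts are not set against it. The 3 members that lost the call in the joint fit were Ugt2b1, Ugt2b5 and Ugt2b36. With the animal as a block, which pairs liver and kidney of a mouse, the counts stayed at 8 higher and 3 lower between tissues in PB and in control mice and at 4 and 1 for the difference of the PB effect, where Ugt2b35 had an adjusted p of 0.0107, Ugdh of 0.00219 and Ugt2b38 of 0.00687 (limma). The share of all probe sets called with this block is not given here. In the main fit it was 80.2% between tissues in PB mice, 78.2% in control mice and 6.21% for the difference of the PB effect. No member changed sign under the alternatives run where either fit called it. Without a call, the log2 fold change of Ugt2b37 in liver ran from -0.16 to 0.15 and that of Ugt3a2 in kidney from -0.1 to 0.01. Akr1a1 and Nr1i3 each had a difference that was not called in the main fit and was called with the other sign in an alternative. On 1430123_a_at, Akr1a1 between liver and kidney of PB mice went from 0.10 (adjusted p = 0.0799 from limma) to -0.74 after quantile normalization. Its other probe sets were at -0.78, -0.60 and -0.66 in the main fit. The difference of the PB effect of Nr1i3 went from -0.37 (adjusted p = 0.709) to 0.32 with signals under 50 set to 50. In liver Nr1i3, Akr1a1, Foxa3 and Rxra each lost the call in at least 1 alternative, and Rxra also without PB liver 18, PB liver 19 or control liver 8 (adjusted p = 0.0506 to 0.0574). The cause was not tested. Signals under 50 limit the kidney values of Ugt2a3, Ugt2b1, Ugt2b35 and Ugt2b36.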

Other observations

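Beside Ugdh, the fourth gene in the ranking by correlation over the 20 livers was Fam25c (r = 0.82), which averaged 1047 in PB livers and 2433 in control livers (log2 fold change -1.21, adjusted p = 8.96e-08 from limma). It was named after its values had been seen. Akr1a1 had 4 probe sets, all higher in PB livers, and on 1 of them no control liver reached a PB liver (6982 to 8106 in PB livers, 5562 to 6724 in control livers).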
